A study of Mus musculus with 23 samples.

Results

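Proteasome genes were taken as all gene symbols of the array annotation that start with Psma, Psmb, Psmc, Psmd or Psme followed by a number and whose probe passed a detection p of 0.05 in 3 or more arrays of any tissue. The rule gave 40 genes out of 16593 gene symbols on the array. Of these, 38 code for subunits, assembly chaperones or activators of the proteasome. The pattern also took Psmc3ip, a cofactor of DNA strand exchange in meiosis, and Psme3ip1, which binds the activator Psme3, and these are counted apart because neither is a subunit. The annotation further lists Psma1 and Psma6, subunits of the alpha ring, but their probes were detected in 0 of 23 arrays, with signals of 115.1 to 176.7 and 113.3 to 185.8, and no level is given for them.

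The proteasome degrades proteins that carry ubiquitin chains. Its 20S core is a barrel of stacked alpha and beta rings, with the protease sites inside the beta rings, and the 19S particle caps the barrel. There a ring of ATPases unfolds the substrate, and non-ATPase subunits of the base and lid bind and remove ubiquitin. In cells exposed to interferon, Psmb8, Psmb9 and Psmb10 can replace the constitutive catalytic subunits, and the activators Psme1 to Psme4 can cap the core in place of 19S. In neurons the proteasome turns over synaptic proteins.

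RNA of hippocampus, cortex and cerebellum from male WT and Bhlhe40 KO mice was measured on BeadChips (Illumina mouse Ref8 v2), and each sample had its own array. Bhlhe40 is a basic helix-loop-helix repressor that binds E-boxes. The KO line had been backcrossed into C57BL/6, the labelled strain of both genotypes, and all mice were naïve, 3 to 5 months old, fasted overnight and killed under isoflurane around midday. The tissues were taken from the same 4 WT and 4 KO mice. This gave 4 arrays for each genotype in hippocampus and cortex, and 3 WT and 4 KO arrays in cerebellum. The remaining WT cerebellum sample, that of WT mouse 2, is missing because the authors removed it as an outlier. The WT spread in cerebellum is therefore that of the samples they kept. In cerebellum, WT replicate 2 came from WT mouse 3 and WT replicate 3 from WT mouse 4. All other arrays have the number of their mouse, so WT replicate 2 of cerebellum is a different mouse from WT replicate 2 of hippocampus and cortex.

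The share of probes detected in an array was 50.9% to 55.5%. Levels are given as log2 signal, normalized so that 0 is the mean of all probes of the array and 1 unit is a doubling of signal at the mean spread of the arrays. Levels are compared between samples for a given probe and not between probes. The Bhlhe40 probe fell by 3.70 (KO hippocampus), by 4.15 (KO cortex) and by 3.38 (KO cerebellum) on the log2 scale, and every KO array lay below every WT array. Markers of each dissected region were highest in that region, with a mean of 1.52 to 1.77 for 4 hippocampal markers, 2.04 to 2.43 for 4 cortical markers and 4.08 to 4.32 for 6 cerebellar markers. KO and WT were compared by the moderated test of limma in each tissue, and a gene passed at a p under 0.05 after adjustment over all genes tested there. The p-values measure the spread between mice, and in bulk tissue fewer cells of a type and less RNA per cell cannot be told apart.

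The E-box CACGTG, which Bhlhe40 is known to bind, was looked for in the promoters of the proteasome genes, from 250 bases before to 50 bases after the start in RefSeq (build GRCm38.p6). Windows were found for 35 of the 40 genes, 38 windows in all. The palindrome was in 5 of these windows (13.2%) and in 7.15% of 32851 promoter windows of all genes. Psma4, Psmb10, Psmd9, Psme3 and Psme3ip1 held it, and it was in 1 of 9 genes of the 20S rings and in 0 of 14 genes of the 19S ATPases and non-ATPases. The windows of the 4 proteasome components are shown because they hold the motif of the deleted factor, with the E-box in capitals, written along the strand of the gene.
Psma4, chr9:54950609-54950908, plus strand: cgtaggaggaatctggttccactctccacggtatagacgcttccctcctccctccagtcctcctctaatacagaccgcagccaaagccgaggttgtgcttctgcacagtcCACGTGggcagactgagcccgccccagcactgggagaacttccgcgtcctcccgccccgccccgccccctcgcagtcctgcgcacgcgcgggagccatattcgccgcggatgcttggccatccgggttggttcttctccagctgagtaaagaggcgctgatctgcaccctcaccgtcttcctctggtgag
Psmb10, chr8:105938343-105938642, minus strand: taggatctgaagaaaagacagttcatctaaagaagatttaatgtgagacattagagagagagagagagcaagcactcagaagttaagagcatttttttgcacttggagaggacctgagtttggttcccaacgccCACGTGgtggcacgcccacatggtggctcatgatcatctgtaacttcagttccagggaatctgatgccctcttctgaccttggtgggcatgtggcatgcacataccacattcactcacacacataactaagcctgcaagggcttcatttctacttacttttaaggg
Psmd9, chr5:123227940-123228239, plus strand: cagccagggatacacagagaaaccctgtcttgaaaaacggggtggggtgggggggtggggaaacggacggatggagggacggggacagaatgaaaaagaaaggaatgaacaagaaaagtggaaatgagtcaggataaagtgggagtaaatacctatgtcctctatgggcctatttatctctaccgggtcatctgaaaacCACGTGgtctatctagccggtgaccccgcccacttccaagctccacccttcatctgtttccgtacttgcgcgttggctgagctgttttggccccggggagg
Psme3, chr11:101315963-101316262, plus strand: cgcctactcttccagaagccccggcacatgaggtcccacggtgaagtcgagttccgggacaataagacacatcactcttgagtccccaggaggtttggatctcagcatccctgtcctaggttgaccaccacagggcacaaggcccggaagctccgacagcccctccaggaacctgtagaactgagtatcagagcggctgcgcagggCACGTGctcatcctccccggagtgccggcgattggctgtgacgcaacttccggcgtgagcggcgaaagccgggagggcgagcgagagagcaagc
The motif started 140 bases before the start of Psma4 used for its window, 116 before that of Psmb10, 51 before that of Psmd9 and 44 before that of Psme3. The start used for Psma4 lies inside the gene, whose first base is at 54950781. A match describes the letters of the window and is no measure of binding. TGANNNNGC, the core of the antioxidant response element through which Nfe2l1 and Nfe2l2 act, was in 22 of the 38 windows (57.9%) on either strand, against 41.3% of all windows, and in 7 of 9 genes of the 20S rings and 6 of 14 of the 19S ATPases and non-ATPases. The CCAAT box was in 13 of the 38 windows (34.2%), against 37.4% of all.

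In KO cerebellum most transcripts of the 20S core were higher than in WT, and none of the 19S ATPases passed the test. Of all 40 genes, which were all tested in cerebellum, 18 were higher and 3 lower. The background in cerebellum was high, as 20.2% of 9449 genes were higher and 16.6% lower. The median difference of the 40 genes was 0.24 on the log2 scale, beside 0.01 for all genes tested. By subcomplex, 11 of the 12 genes of the alpha and beta rings were higher with a median of 0.36, 0 of 6 ATPases passed with a median of -0.01, and 1 of 10 non-ATPase subunits was higher and 2 were lower with a median of -0.00. None of the 6 ATPases had an unadjusted p under 0.05 in limma, against 45.5% of all genes. Every KO array lay above every WT array for 10 of the 12 ring genes and for 0 of 6 ATPases, where the share over all genes was 21.7%. Every KO array lay below every WT array for 3 of the 40 genes, beside 18.5% of all genes.

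**Figure D1:**
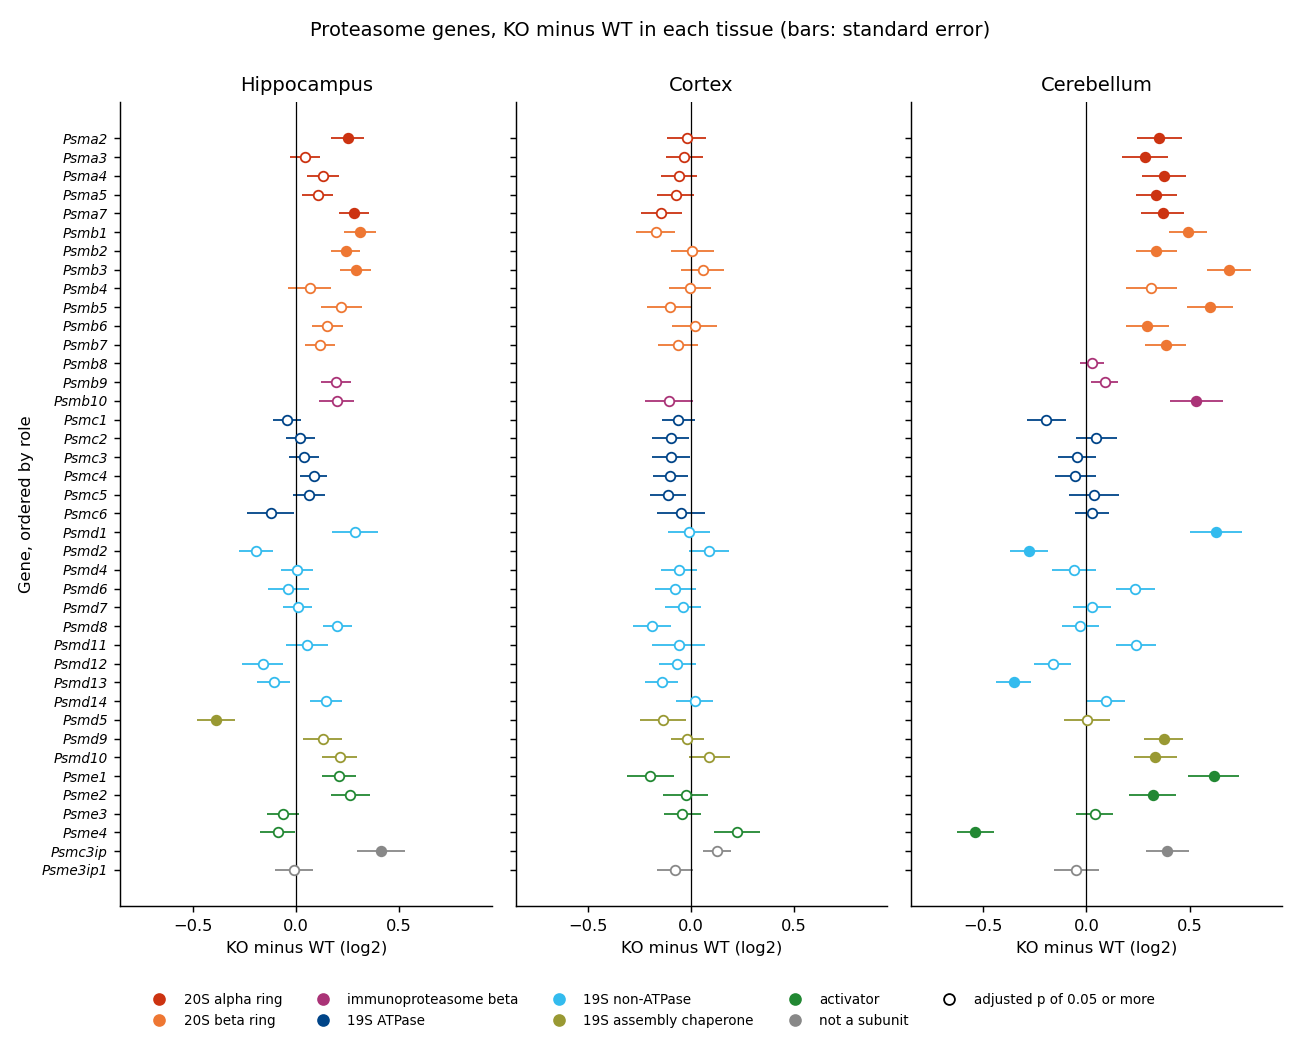
KO minus WT difference (x axis, log2) of each proteasome gene (y axis, ordered by role and coloured by it) in hippocampus, cortex and cerebellum, with bars for the standard error and filled points for an adjusted p under 0.05. In cerebellum the 12 ring genes lie between 0.28 and 0.69 and the 6 ATPases between -0.20 and 0.05.

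All 5 genes of the alpha ring, which gates the entry to the core, were higher in KO cerebellum. Psma7 was at 3.18, 2.74 and 2.98 in the WT arrays and at 3.35, 3.29, 3.22 and 3.49 in the KO arrays, a difference of 0.37 ± 0.10 (SE, adjusted p = 0.00896 in limma). Psma4 was at 3.75, 3.66 and 3.52 in WT and at 3.84, 3.96, 4.02 and 4.25 in KO (0.38 ± 0.11, adjusted p = 0.00901). The groups did not overlap in either gene, and the WT replicate 2 array was the lowest in Psma7 while the KO replicate 4 array was the highest in both. The other 3, Psma2, Psma3 and Psma5, differed by 0.28 to 0.35, and the smallest of these, Psma3, overlapped between the groups (adjusted p = 0.0486) and was past the threshold in only 2 of the 7 fits that left out 1 array, those without WT replicate 2 and without KO replicate 1. Psma7 missed it without WT replicate 2 (adjusted p = 0.069) and Psma5 without WT replicate 3 (0.0619).

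In the beta ring, 6 of 7 genes were higher, among them each of the 3 catalytic subunits. Psmb3, a structural subunit, was at 3.24, 2.85 and 3.19 in WT and at 3.74, 3.69, 3.72 and 3.98 in KO cerebellum. The lowest KO array was well above the highest WT array, and the difference of 0.69 ± 0.11 (1.61-fold, adjusted p = 7.75e-05 in limma) was the most significant of the 40 genes. Psmb5, which carries the chymotrypsin-like site, was at 1.71, 1.27 and 1.73 in WT and at 2.04, 2.17, 2.25 and 2.21 in KO (0.60 ± 0.11, 1.52-fold, adjusted p = 0.000407). Psmb1, a structural subunit, was at 2.94, 2.69 and 2.87 in WT and at 3.32, 3.21, 3.35 and 3.44 in KO (0.49 ± 0.09, adjusted p = 0.000463). In both genes the groups were apart, and WT replicate 2 was again the lowest array.

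Psmb7, which carries the trypsin-like site, was at 4.17, 4.11 and 4.12 in WT and at 4.44, 4.44, 4.55 and 4.65 in KO cerebellum (0.38 ± 0.10, adjusted p = 0.00509 in limma), so that the groups were apart with little spread in WT. A further probe of Psmb7 passed at 0.36 (adjusted p = 0.0198 in limma), and another did not, at 0.27 (adjusted p = 0.0828). Psmb6, with the caspase-like site, was at 3.50, 3.30 and 3.66 in WT and at 3.67, 3.69, 3.81 and 3.95 in KO (0.29 ± 0.10, adjusted p = 0.0325). Its groups were separated by a narrow gap, and it missed the threshold without WT replicate 2 (adjusted p = 0.176), KO replicate 3 or KO replicate 4. Psmb2 was 0.34 higher (adjusted p = 0.0121), and without WT replicate 2 its adjusted p was 0.0812. Psmb4 was the ring gene that did not pass, with a difference of 0.31 ± 0.13 (adjusted p = 0.0553).

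**Figure D2:**
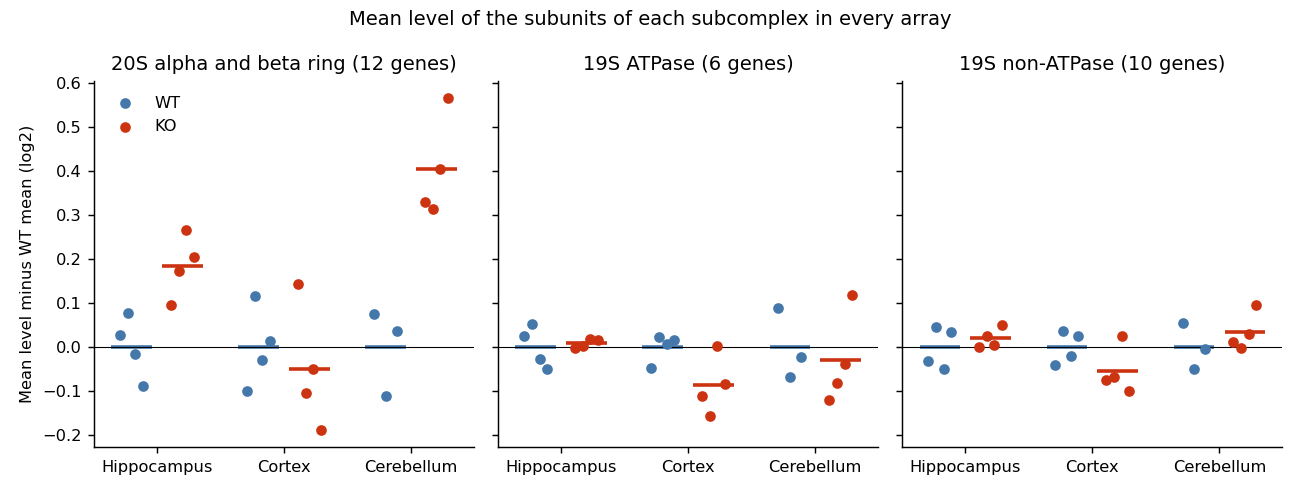
Mean level of the genes of the 20S rings, the 19S ATPases and the 19S non-ATPase subunits in each array (y axis, log2, minus the WT mean of the tissue), by tissue (x axis) and genotype, with 1 point for each array and a bar at the group mean. The 4 KO cerebellum arrays lie at 0.31 to 0.57 for the 20S rings against -0.11 to 0.08 in WT, and the groups overlap for both 19S classes.

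The mean level of the 20S genes relative to WT was 0.08, -0.11 and 0.04 in the WT cerebellum arrays and 0.33, 0.31, 0.40 and 0.57 in the KO arrays, so that every KO array was above every WT array, with KO replicate 4 the highest and WT replicate 2 the lowest. The mean of the ATPases was 0.09, -0.07 and -0.02 in WT and -0.12, -0.08, -0.04 and 0.12 in KO, and that of the non-ATPase subunits 0.05, -0.05 and -0.00 in WT and 0.01, -0.00, 0.03 and 0.09 in KO. KO replicate 4 was the highest KO array in each of the 3 classes. WT replicate 2 of cerebellum is the array of WT mouse 3. When 1 array was left out at a time, between 8 and 11 of the 12 ring genes were higher, with 8 when WT replicate 2 was left out, and all 12 differences stayed above 0 with medians of 0.30 to 0.40. With every cerebellum array in the fit, 4930 of 9449 genes had a difference above 0.

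Among the 19S ATPases Psmc1 to Psmc6, the motor of the cap, the KO minus WT differences in cerebellum ran from -0.20 to 0.05. Psmc1 had the lowest of these, with 3.42, 3.24 and 3.43 in WT and 3.11, 3.05, 3.19 and 3.33 in KO (-0.20 ± 0.09, adjusted p = 0.114 in limma), and the groups overlapped. Psmc2 was at 4.29, 4.19 and 4.19 in WT and at 4.22, 4.21, 4.21 and 4.42 in KO, with 3 of the 4 KO arrays inside the WT range.

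The non-ATPase subunits split. Psmd1, the large scaffold of the base, was at 0.15, -0.40 and -0.46 in WT and at 0.35, 0.31, 0.47 and 0.44 in KO cerebellum (0.63 ± 0.13, 1.55-fold, adjusted p = 0.00084 in limma), with all KO arrays above WT and WT replicate 1 well above the other WT arrays. Psmd13, a lid subunit, went the other way, with 3.63, 3.56 and 3.59 in WT and 3.19, 3.17, 3.30 and 3.30 in KO (-0.35 ± 0.09, adjusted p = 0.00365), again with no overlap. Psmd2, the other large scaffold of the base, was at -0.35, -0.12 and -0.03 in WT and at -0.45, -0.49, -0.52 and -0.33 in KO (-0.28 ± 0.09, adjusted p = 0.0222). Its groups overlapped, its probe was dim, and it missed the threshold without WT replicate 2 (adjusted p = 0.0803), WT replicate 3 (0.109) or KO replicate 3 (0.0618). A still dimmer probe of Psmd2 gave -0.14 and did not pass (adjusted p = 0.0934 in limma). Psmd14, the lid enzyme that cuts off the ubiquitin chain, differed by 0.09 ± 0.09 in cerebellum (adjusted p = 0.442), with WT arrays at 1.78 to 1.96 and KO arrays at 1.90 to 2.01. Psmd6 and Psmd11 were 0.24 higher and Psmd12 0.16 lower, and none of these passed.

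Of the 3 chaperones that assemble the 19S base, 2 were higher in KO cerebellum. Psmd9 was at -0.28, -0.52 and -0.46 in WT and at -0.19, -0.01, -0.01 and 0.01 in KO (0.37 ± 0.09, adjusted p = 0.00378 in limma), but another, dimmer probe of the gene gave -0.08 (adjusted p = 0.47), so the call rests on the brighter probe. Psmd10 was 0.33 higher (adjusted p = 0.0153), and its other 2 detected probes gave 0.33 and 0.47. Without WT replicate 2, WT replicate 3 or KO replicate 1 its adjusted p was 0.0782, 0.0539 and 0.0513. Psmd5 differed by 0.00 ± 0.11.

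The activators went in opposite directions. Psme1, a subunit of the 11S cap, was at 1.19, 0.78 and 0.90 in WT and at 1.59, 1.33, 1.56 and 1.81 in KO cerebellum (0.62 ± 0.12, 1.53-fold, adjusted p = 0.00076 in limma), and a further probe of the gene gave 0.65. Psme4, the monomeric activator PA200 that is known for acetylated histones, was at 3.14, 3.13 and 3.22 in WT and at 2.75, 2.70, 2.53 and 2.52 in KO (-0.54 ± 0.09, 0.688-fold, adjusted p = 0.000161). In neither gene did the groups overlap, and the dimmer probe of Psme4 gave -0.24 (adjusted p = 0.107). Psme2, the partner of Psme1, was at -0.33, -0.46 and 0.07 in WT and at 0.11, -0.02, 0.02 and 0.21 in KO (0.32 ± 0.12, adjusted p = 0.0355). WT replicate 3 lay among the KO arrays, and the gene missed the threshold without WT replicate 1 (adjusted p = 0.111), WT replicate 2 (0.234), KO replicate 1 (0.0667) or KO replicate 4 (0.082). Psme3, the nuclear activator, was at 2.72 to 2.78 in WT and at 2.68 to 2.91 in KO (0.04 ± 0.09, adjusted p = 0.757).

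**Figure D3:**
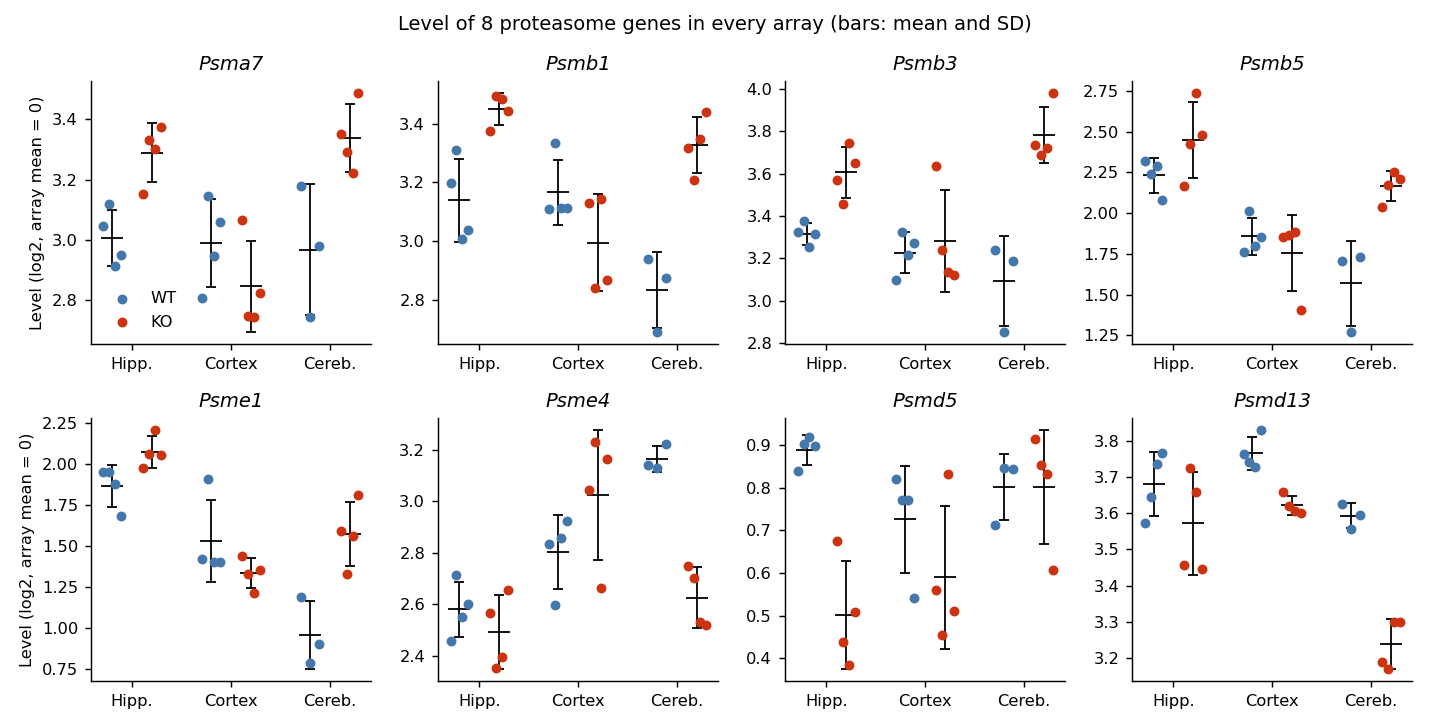
Level (y axis, log2, 0 at the mean of all probes of an array) of 8 proteasome genes in every WT and KO array of each tissue (x axis), with bars for the mean and SD of each group. In cerebellum the KO arrays are above WT for Psma7, Psmb1, Psmb3, Psmb5 and Psme1, below WT for Psme4 and Psmd13, and overlap WT for Psmd5.

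Of the interferon-inducible catalytic subunits, only Psmb10 had a level above the array mean. It was at 0.84, 0.47 and 0.81 in WT and at 1.05, 1.10, 1.26 and 1.54 in KO cerebellum, with no overlap (0.53 ± 0.13, 1.45-fold, adjusted p = 0.00335 in limma), and a further probe gave 0.64. Psmb9 was below the array mean in all arrays, at -0.91 to -0.80 in WT and -0.86 to -0.69 in KO (0.09 ± 0.07, adjusted p = 0.303), and Psmb8 was at -0.98 to -0.84 and -0.91 to -0.80 (0.03 ± 0.06, adjusted p = 0.761). Psmb8 was detected in cerebellum only and Psmb9 in hippocampus and cerebellum only under the detection rule. In a list of 13 interferon-induced genes, of which 9 were tested in cerebellum, B2m was higher (0.55) and Gbp2 lower (-0.72), and the median was 0.01. Among 8 tested microglia markers C1qa, C1qb and C1qc were higher and none was lower, beside 20.2% higher and 16.6% lower of all genes. The part of these cells in the values was not tested.

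Among the 2 genes that are no subunits, Psmc3ip was at -0.04, -0.42 and -0.26 in WT and at 0.19, 0.14, 0.10 and 0.18 in KO cerebellum (0.39 ± 0.10, adjusted p = 0.00546 in limma) without overlap. Without WT replicate 2 its adjusted p was 0.0531. Psme3ip1 differed by -0.05 ± 0.11.

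In hippocampus the differences of the ring genes were smaller, and which genes passed depended on single arrays. Of 39 genes tested, 6 were higher and 1 lower, where 7.19% of 9834 genes were higher and 4.59% lower, and the median of the 39 was 0.11 beside 0.01 for all genes. All 12 ring genes had a difference above 0, beside 5099 of 9834 for all genes. The median of the ring genes was 0.19, and 5 of the 12 passed. With 1 array left out at a time, 11 or 12 of the 12 stayed above 0, with medians of 0.13 to 0.23. None of the 6 ATPases and none of the 10 non-ATPase subunits passed by limma, and 0 and 3 of them had an unadjusted p under 0.05, a level that 28.4% of all genes reached. The KO arrays lay above the WT arrays for 8 of the 39 genes and below for 2, beside 9.25% and 7.45% of all genes. The number of higher genes was 0 without WT replicate 4 or KO replicate 3, 1 without WT replicate 3, and 3 without WT replicate 1 or KO replicate 4, and the median ranged from 0.07 to 0.14. Of all genes 2.09%, 2.76%, 4.88%, 5.17% and 6.09% were higher in these fits, in the same order.

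Psmb1 was at 3.20, 3.31, 3.01 and 3.04 in WT and at 3.37, 3.50, 3.49 and 3.44 in KO hippocampus (0.31 ± 0.08, 1.24-fold, adjusted p = 0.0187 in limma). Psmb3 was at 3.32, 3.38, 3.25 and 3.31 in WT and at 3.57, 3.46, 3.74 and 3.65 in KO (0.29 ± 0.07, adjusted p = 0.0214). The groups did not overlap in either gene, and in Psmb1 the gap to the highest WT array was narrow. Psma7 was at 3.05, 3.12, 2.91 and 2.95 in WT and at 3.15, 3.33, 3.30 and 3.37 in KO (0.28 ± 0.07, adjusted p = 0.0236). Psmb2 was at 3.52, 3.42, 3.45 and 3.45 in WT and at 3.59, 3.71, 3.70 and 3.81 in KO (0.24 ± 0.07, adjusted p = 0.0344). In each of these 4 genes every KO array was above every WT array. The other probe of Psma7 gave 0.25 and did not pass (adjusted p = 0.0573 in limma), while that of Psmb2 passed at 0.32. Psma2 was at 4.38, 4.58, 4.38 and 4.34 in WT and at 4.56, 4.66, 4.73 and 4.74 in KO (0.25 ± 0.08, adjusted p = 0.0498), with WT replicate 2 just above the lowest KO array. Without WT replicate 4, the adjusted p was 0.0703 for Psmb1, 0.0622 for Psmb3, 0.077 for Psma7, 0.0873 for Psmb2 and 0.147 for Psma2, and without WT replicate 3 or KO replicate 3 these 5 genes missed the threshold as well. Psmb2 and Psma2 also missed it without WT replicate 1 or KO replicate 4, Psma7 without KO replicate 4, Psmb2 without WT replicate 2 and Psma2 without KO replicate 2. Over all arrays left out in turn, the difference itself ran from 0.27 to 0.37 for Psmb1 and from 0.24 to 0.34 for Psmb3.

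Outside the core, Psmd5 was lower in KO hippocampus, with 0.84, 0.90, 0.92 and 0.90 in WT and 0.67, 0.44, 0.38 and 0.51 in KO (-0.39 ± 0.09, 0.764-fold, adjusted p = 0.0145 in limma). All KO arrays were below the WT arrays, and without KO replicate 3, the lowest of them, the adjusted p was 0.0522. Psmc3ip, no subunit, was at -0.34, -0.18, -0.10 and -0.49 in WT and at 0.13, -0.02, 0.48 and -0.05 in KO (0.41 ± 0.12, adjusted p = 0.0308), and its adjusted p was 0.0733 without WT replicate 1, 0.118 without WT replicate 4, 0.0554 without KO replicate 1 and 0.105 without KO replicate 3. The catalytic subunits Psmb5, Psmb6 and Psmb7 differed by 0.22, 0.15 and 0.12 and did not pass (adjusted p of 0.159, 0.201 and 0.319). A further probe of Psmb7 did pass, at 0.30, and another did not, at 0.15 (adjusted p = 0.174 in limma). Psmb9 and Psmb10 differed by 0.20 each and did not pass, while another probe of Psmb10 passed at 0.30. Psme1, Psme2, Psme3, Psme4 and Psmd14 differed by 0.21, 0.26, -0.06, -0.09 and 0.15 and did not pass.

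In cortex no proteasome gene passed in either direction. Of 38 genes tested, 0 were higher and 0 lower by limma, where 0.113% of 9720 genes were higher and 0.0926% lower, and 0 of the 38 had an unadjusted p under 0.05, beside 9.3% of all genes. The median of the 38 was -0.06, beside -0.00 for all genes. Of the 38 differences 30 were below 0, beside 5015 of 9720 for all genes. The 12 ring genes had a median of -0.05 and the 6 ATPases of -0.10. The mean of the ring genes was -0.10, 0.11, -0.03 and 0.01 in WT cortex and 0.14, -0.10, -0.05 and -0.19 in KO, and the groups overlapped, with KO replicate 1 above all other arrays and KO replicate 4 below them. The catalytic subunits Psmb5, Psmb6, Psmb7 and Psmb10 differed by -0.10, 0.02, -0.06 and -0.11, the activators Psme1, Psme2, Psme3 and Psme4 by -0.20, -0.03, -0.04 and 0.22, and Psmd14 by 0.02. Every KO array was above every WT array for 1 gene, Psmc3ip, and below for 1, Psmd13, beside 1.75% and 2.5% of all genes.

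Whether the KO effect differed between tissues was tested as an interaction in a joint fit of the 23 arrays, which took the mouse as a random block, on the 8954 genes kept in every tissue, which hold 38 of the 40. Cortex and cerebellum differed for 15 of 38 genes, 13 with a larger value in cerebellum and 2 with a larger value in cortex, where 33.6% of all genes passed, 18.4% and 15.2% in these directions. All 5 alpha ring genes and 4 of 7 beta ring genes were among the 13, and 0 of 6 ATPases passed. Psmb1 had the smallest adjusted p, with a KO effect of -0.17 in cortex and 0.49 in cerebellum (difference -0.66 ± 0.13, adjusted p = 0.000292 in limma). Psme4 was the opposite case, with 0.22 in cortex and -0.54 in cerebellum (0.76 ± 0.15, adjusted p = 0.000303). Next came Psme1 with -0.81 ± 0.16 (adjusted p = 0.000469), Psmb3 with -0.63 ± 0.15 (0.00151), Psmb5 with -0.70 ± 0.17 (0.00194) and Psmb10 with -0.64 ± 0.17 (0.00397). With each mouse left out in turn, 11 to 19 genes passed, and the share of all genes in these fits was not computed.

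Hippocampus and cortex differed for 2 of 38 genes, both with a larger value in hippocampus, where 3.58% of all genes passed, 1.89% in this direction and 1.7% in the other. These were Psmb1, with 0.31 in hippocampus and -0.17 in cortex (difference 0.48 ± 0.12, adjusted p = 0.0326 in limma), and the lid subunit Psmd8, with 0.20 and -0.19 (0.39 ± 0.11, adjusted p = 0.044). The count was 0 without WT mouse 2 or 4 or without KO mouse 2, 3 or 4, 1 without WT mouse 3 and 4 without KO mouse 1. The share of all genes in these fits was not computed. Between hippocampus and cerebellum 0 of 38 genes differed by limma, where 1.75% of all genes passed, 0.659% with a larger value in hippocampus and 1.09% in cerebellum. A difference of the KO effect between hippocampus and cerebellum was thus not shown for any of these genes. The interactions share their arrays with the comparisons within tissues and are not independent of them.

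**Figure D4:**
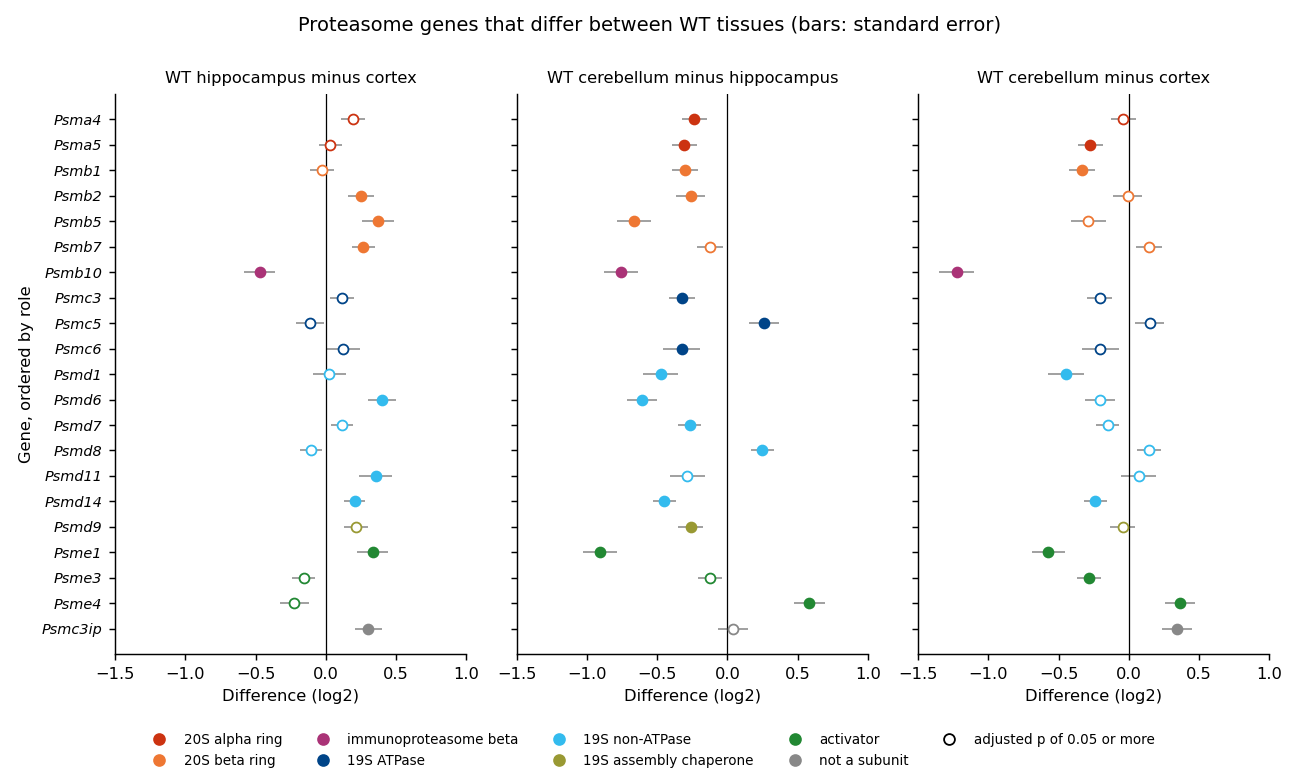
Difference between WT tissues (x axis, log2) for the 21 proteasome genes that passed in at least 1 of the 3 contrasts (y axis, ordered by role), with bars for the standard error and filled points for an adjusted p under 0.05. Both Psmb10 (-1.23, cerebellum minus cortex) and Psme1 (-0.91, cerebellum minus hippocampus) are lower in cerebellum. Psme4 has the largest value in the other direction, 0.58 higher in cerebellum than in hippocampus.

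In WT mice 21 of the 40 genes differed between at least 1 pair of tissues, a count with no matching share of all genes. Between cerebellum and hippocampus alone 5469 of all 10336 genes differed. Cerebellum and hippocampus differed for 17 of 40 genes, 3 higher in cerebellum and 14 lower, where 26.9% and 26.1% of 10336 genes passed. Cerebellum and cortex differed for 9, 2 higher and 7 lower in cerebellum (26.2% and 24.3% of all genes), and hippocampus and cortex for 9, 8 higher and 1 lower in hippocampus (12.7% and 11.7%). The medians of the 40 genes were -0.17, -0.05 and 0.10 in this order, beside 0.01, 0.01 and 0.00 for all genes. The last count was 3 without WT mouse 1 or 3 and 5 without WT mouse 2 or 4, and the share of all genes in these fits was not computed. The WT cerebellum arrays of these contrasts are also the control of the KO comparison, so the 2 sets of values are not independent.

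Psmb10 had the strongest tissue pattern. Its WT level was 1.93 ± 0.12 (SD, n = 4) in cortex, 1.46 ± 0.08 (n = 4) in hippocampus and 0.71 ± 0.21 (n = 3) in cerebellum, and each step of this order passed, with the cerebellum 0.427-fold of the cortex. The hippocampus had the highest level of Psme1, 1.87 ± 0.13, followed by cortex at 1.53 ± 0.25 and cerebellum at 0.96 ± 0.21, and again each step passed. Psmb5 was at 2.23 ± 0.11 in hippocampus, 1.86 ± 0.11 in cortex and 1.57 ± 0.26 in cerebellum, where the step from cortex to cerebellum did not pass (-0.29, adjusted p = 0.0503 in limma). Psme4 had the reverse order, with 3.16 ± 0.05 in cerebellum, 2.80 ± 0.14 in cortex and 2.58 ± 0.11 in hippocampus, and the cortex and hippocampus were not separated (adjusted p = 0.105). The lid subunit Psmd6 was 0.40 higher in hippocampus than in cortex and differed by -0.61 between cerebellum and hippocampus, and Psmd11 was 0.35 higher in hippocampus than in cortex. Psmd14 differed by -0.45 between cerebellum and hippocampus, and Psmd1 by -0.48 from hippocampus and by -0.45 from cortex. Besides Psme4, the genes higher in cerebellum were Psmc5 (0.26) and Psmd8 (0.25) against hippocampus and Psmc3ip (0.34) against cortex.

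Genes that work with the proteasome were read from further lists of gene symbols, whose counts stand beside 20.2% higher and 16.6% lower of all genes in cerebellum and 7.19% and 4.59% in hippocampus, with a median of 0.01 over all genes in both. Of the chaperones that assemble the 20S core, 4 were tested and all 4 were higher in KO cerebellum, with a median of 0.45. These were Psmg1 (0.40), Psmg2 (0.31), Psmg3 (0.61 ± 0.11, adjusted p = 0.000295 in limma) and Pomp, which matures the beta ring (0.50 ± 0.11, adjusted p = 0.00207). In hippocampus Pomp (0.35, adjusted p = 0.0126) and Psmg3 (0.35, adjusted p = 0.0294) were higher and the median was 0.28, and in cortex 0 of 4 passed with a median of -0.09. Their mean level was 1.26 to 1.54 in WT and 1.83 to 1.90 in KO cerebellum, without overlap.

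Factors bound to the proteasome were mixed. Sem1, a small lid component, was 0.73 ± 0.12 higher in KO cerebellum (adjusted p = 9.13e-05 in limma) and 0.32 higher in hippocampus (adjusted p = 0.0213), while the ubiquitin ligase Ube3c was 0.55 lower in cerebellum (adjusted p = 0.000105) and 0.29 lower in hippocampus (adjusted p = 0.0277). In all, 2 of 5 were higher and 2 lower in cerebellum, 1 and 1 in hippocampus and 0 in cortex, beside 20.2% higher and 16.6% lower of all genes in cerebellum and 7.19% and 4.59% in hippocampus. Of 7 tested p97 and shuttle factors, 2 were higher and 2 lower in cerebellum, among them Ubqln4 (0.36) and Faf1 (-0.67), and 0 passed in hippocampus or cortex. Of 7 tested transcription factors of proteasome genes and their regulators, Nfe2l1 and Nfe2l2 among those listed, Stat3 was lower in hippocampus (-0.49) and Stat3 (-0.26) and Nfyc (-0.32) were lower in cerebellum, and none was higher, beside the same 4.59% and 16.6% lower of all genes.

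Complexes built like the 19S lid were looked at beside it, against 16.6% of all genes lower in cerebellum and 4.59% in hippocampus. Of 9 COP9 signalosome subunits, Cops3 was lower in KO cerebellum (-0.27) and none was higher, with a median of -0.12. Of 10 tested eIF3 subunits, 3 were lower in cerebellum and 2 in hippocampus, with Eif3c at -0.68 and -0.31 and Eif3d at -0.62 and -0.29. Of the ubiquitin-conjugating enzymes, 1 of 18 was higher and 2 were lower in cerebellum, with Ube2n (-0.49) and Ube2d3 (-0.48) the lower ones, shares below the 20.2% and 16.6% of all genes. In cortex 0 of these genes passed.

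Markers of the choroid plexus, an epithelium that lies against hippocampus and cerebellum and can be caught in dissection, moved with genotype in the same tissues. Of 9 tested markers, 9 were higher in KO hippocampus with a median of 1.34, and 8 of 9 were higher in KO cerebellum with a median of 0.75, beside 7.19% and 20.2% of all genes. Their mean level was -0.54 to 1.43 in WT and 0.91 to 2.65 in KO hippocampus, and 0.58 to 1.18 in WT and 1.47 to 1.86 in KO cerebellum, where the groups did not overlap. In cortex 3 markers were tested, 0 passed, and Folr1, Otx2, Aqp1, Cldn2, Kcne2 and Steap1 were not detected. With the mean marker level as a covariate, the median difference of the 12 ring genes was 0.51 in cerebellum with 12 of 12 above 0, and 0.14 in hippocampus with 11 of 12 above 0. Because the marker level was apart between the genotypes in cerebellum, the fit there cannot tell genotype and marker level apart. With that covariate there were 2 higher ring genes in cerebellum, Psmb5 (0.95, adjusted p = 0.0242 in limma) and Psmb3 (0.89, adjusted p = 0.0361), and 0 in hippocampus, where 3.33% and 0.0814% of all genes were higher.

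The differences also ran with gene length. The Spearman correlation of the KO minus WT difference with gene length, taken over genes that are no independent replicates, was -0.358 for 9830 hippocampal genes, 0.204 for 9715 cortical genes and -0.342 for 9445 cerebellar genes. The ring genes had a median length of 11249.5 bases, the ATPases of 10777, the non-ATPase subunits of 14271 and all genes tested in cerebellum of 22560. With each array corrected for its trend with length, 10 of 12 ring genes were higher in cerebellum with a median of 0.36 and 0 of 6 ATPases passed with a median of -0.10. The inducible subunit Psmb8 turned from 0.03 to -0.18 under that correction and then passed as lower (adjusted p = 0.0214 in limma). In hippocampus 3 ring genes passed, with a median of 0.15. With this correction 20.2% of all genes were higher in cerebellum and 4.81% in hippocampus.

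**Figure D5:**
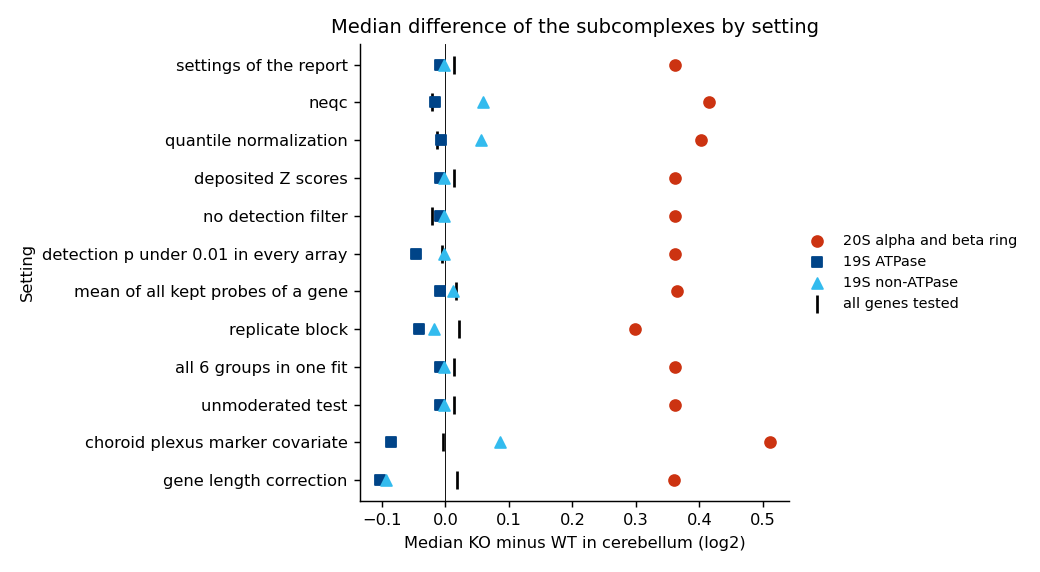
Median KO minus WT difference in cerebellum (x axis, log2) of the 12 genes of the 20S rings, the 6 ATPases, the 10 non-ATPase subunits and all genes tested, under each way of processing the arrays (y axis). The ring genes lie at 0.30 to 0.51 and both 19S classes at -0.10 to 0.09. In this tissue the choroid plexus covariate does not overlap between the genotypes, so that setting cannot tell them apart.

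Of the 40 genes, 15 had several detected probes in each tissue. The sign differed between probes for 3 hippocampal, 6 cortical and 3 cerebellar genes, the last being Psmd9, Psmd11 and Psmd12, and 0 genes had probes called in opposite directions. Psmd7, a lid subunit, depended on the probe, since the brighter one gave 0.03 in cerebellum and the other gave 0.39 (adjusted p = 0.00534 in limma). Both probes of Psma7 (0.37 and 0.51), Psmb2 (0.34 and 0.43), Psmb10 (0.53 and 0.64) and Psme1 (0.62 and 0.65) gave similar values.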

How the data were processed

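Total RNA of 23 samples was measured on Illumina mouse Ref8 v2 BeadChips with 25697 probes. The authors extracted the bead intensity of each probe in GenomeStudio 2011.1, the version in the submitters' processing notes, and deposited it without normalization, together with a detection p-value against the negative controls of the array. The authors also deposited a Z score of the log signal over all probes of each array.

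The log2 intensity was turned into Z scores within each array and scaled by 1.57, the SD averaged over arrays, and these Z scores differed from the deposited ones by at most 9.96e-05. Probes were named from the platform annotation, which gave 23978 probes 1 symbol and 1719 none, and a gene was read from its brightest probe. A tissue kept the genes whose detection p was below 0.05 on 3 arrays or more. KO and WT were compared in each tissue by limma 3.58.1 in R 4.3.3 (lmFit, eBayes with trend), with Benjamini-Hochberg adjustment over all kept genes. Differences of the KO effect between tissues and levels of WT tissues came from 1 fit of the 23 arrays that took the mouse as a random block. The scripts were tested on simulated data.

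The proteasome genes, the further gene lists and the tests were chosen with earlier results of these data known. Genes named in the text are those past the threshold in hippocampus or cortex, the 10 most significant and the lower ones in cerebellum, the catalytic subunits with their inducible counterparts, the activators and Psmd14, those with the most significant differences between tissues, and the leading genes of each list. Other genes were named after their values were seen. Alternatives covered background correction, normalization, the detection filter, the choice of probe, the replicate block, the shared fit, an unmoderated test, a choroid plexus covariate, a gene length correction and each array left out. The number of arrays limits the precision. The scan dates and chip positions were not given in the sources used here, so no batch was tested.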

Additional observations from a re-analysis of the deposited data

Results flagged for a closer look

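In 17 of 194 groups of 4 arrays, 1 array stood far from the other 3 by Dixon's test, where chance flags about 1 in 20 groups. Groups of 3 arrays were not tested. In hippocampus, WT replicate 2 was high for Psma2 (4.58, others 4.34 to 4.38) and Psmc3 (3.42, others 3.18 to 3.20) and low for Psme3ip1 (1.89, others 2.08 to 2.11). KO replicate 1 was low there for Psmc3 (3.19, others 3.31 to 3.33) and Psmc4 (3.79, others 3.83 to 3.84), and KO replicate 2 was high for Psme3 (2.98, others 2.74 to 2.77).

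In cortex, WT replicate 2 was high for Psmb1 (3.33, others 3.11), Psmd8 (3.40, others 3.17 to 3.21) and Psme1 (1.91, others 1.40 to 1.42), and WT replicate 1 was low for Psmb2 (3.00, others 3.25 to 3.29). KO replicate 1 was high for Psmb10 (2.23, others 1.66 to 1.73) and Psmb4 (4.89, others 4.50 to 4.56), and KO replicate 4 was low for Psmb5 (1.41, others 1.86 to 1.89). In cerebellum, KO replicate 4 was high for Psmb3 (3.98, others 3.69 to 3.74) and Psmc2 (4.42, others 4.21 to 4.22), and KO replicate 1 was low for Psmd9 (-0.19, others -0.01 to 0.01) and high for Psme3ip1 (2.22, others 1.95 to 1.98).

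For 16 genes the KO effect differed between tissues by the interaction test of limma, in 17 contrasts. Between hippocampus and cortex these were Psmb1 (0.48, adjusted p = 0.0326) and Psmd8 (0.39, adjusted p = 0.044). Between cortex and cerebellum the differences in the alpha ring were -0.37 for Psma2, -0.32 for Psma3, -0.43 for Psma4, -0.41 for Psma5 and -0.51 for Psma7. In the beta ring they were -0.66 for Psmb1, -0.63 for Psmb3, -0.70 for Psmb5 and -0.45 for Psmb7, and for the inducible Psmb10 the difference was -0.64. Outside the core they were -0.64 for Psmd1, 0.37 for Psmd2, -0.39 for Psmd9, -0.81 for Psme1 and 0.76 for Psme4. The adjusted p-values of these 15 genes ran from 0.000292 to 0.0493.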

How the results depend on the processing

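The deposited Z scores gave the same counts. In hippocampus the 6 higher genes became 2 with all 6 groups in one fit and 3 with a gene length correction. They became 0 with an unmoderated test or with the choroid plexus covariate, where the 1 lower gene became 0 as well. In these settings 5.97%, 4.81%, 0.061% and 0.0814% of all hippocampal genes were higher, in this order, against 7.19% in the settings of the report. In the last ones 0.0915% and 0.0712% were lower, against 4.59%. In cerebellum the 18 higher genes became 8 with the unmoderated test and 2 with the choroid plexus covariate, which also gave 0 lower genes in place of 3. There 11.7% and 3.33% of all genes were higher in these settings, against 20.2%. With the covariate 0.402% of all genes were lower, against 16.6%. The cerebellum median of 0.24 was 0.15 with the mean of all probes of a gene, where Psmd9 was at 0.15 (adjusted p = 0.142 in limma), and 0.11 with the length correction. Between hippocampus and cortex the 2 differing KO effects became 0 with no detection filter. In cerebellum 1 ATPase was lower with all 6 groups in one fit.

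With 1 array left out at a time, 0 to 6 genes were higher and 0 to 1 lower in hippocampus (median 0.07 to 0.14), 0 to 0 in cortex (median -0.09 to -0.03), and 12 to 18 higher and 2 to 3 lower in cerebellum (median 0.19 to 0.27), with 12 when WT replicate 2 was left out. Without that array 15% of all genes were higher in cerebellum. With 1 mouse left out, the KO effect differed for 0 to 4 genes between hippocampus and cortex, 0 to 0 between hippocampus and cerebellum and 11 to 19 between cortex and cerebellum, and WT levels for 3 to 9, 13 to 18 and 8 to 11 genes. For the fits without a mouse the share of all genes was not computed.

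Same-numbered arrays of the 2 genotypes share only a number, and the correlation of their deviations was -0.345 to 0.304. With the replicate block 4 genes were higher and 1 lower in hippocampus, 0 were either in cortex, and in cerebellum 15 were higher and 4 lower, with 9 of 12 ring genes and 1 ATPase among these. Of all genes 8.03% were higher and 4.76% lower with this block in hippocampus, and 19.6% and 14.7% in cerebellum. KO replicate 4 of cerebellum has no WT array of its number, so with this block it adds nothing to the KO effect. The cerebellum difference of Psma3, for example, was 0.204 with the block and also without that array. Without the mouse as a replicate block the counts of the contrasts between tissues were 2, 0, 15, 9, 17 and 9, as with it. Of 51 values of single genes, 46 kept their side of the threshold with the replicate block, 47 with all groups in one fit, 50 with quantile normalization, 44 with the length correction, 32 with the unmoderated test and 25 with the choroid plexus covariate. The sign turned for 5 with the length correction, 2 with the choroid plexus covariate and 1 each with limma's neqc background correction and with quantile normalization, and 1 of these passed the test, Psmb8 in cerebellum, which went from 0.03 to -0.18 with the length correction (adjusted p = 0.0214 in limma). The other turned values did not pass in either setting. The causes were not tested. Genes near the background, such as Psmb8 and Psmb9, are limited by their signal.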
